A study of Trichosurus vulpecula with 6 samples.

Results

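Skin holds resident macrophages and dendritic cells, which take up debris and microbes, make the recognition molecule of the classical complement pathway and present peptides on MHC class II molecules to T cells. The genes described here are 10 that mark these cells: the 3 chains of complement C1q (C1QA, C1QB and C1QC), the class II chaperone CD74 and the protease CTSS, the pore-forming protein MPEG1, the growth factor receptor CSF1R, the haemoglobin scavenger receptor CD163, the endosomal glycoprotein CD68 and the signalling adaptor TYROBP. They were chosen by earlier results of these same libraries, in which genes of this kind were higher in black than in grey skin, so their levels by coat colour are given as a description and without a test. Of the 10 genes, 9 were measured, among 18734 genes with an assembled transcript. TYROBP had no gene of that name in the annotation used and is not analysed here. All 9 passed the filter of a mean level of 1 TPM or more (TPM is a transcript's share of its library after correction for transcript length, scaled so that libraries of unequal depth can be compared).

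RNA came from ear punch skin of 6 adult female common brushtail possums (Trichosurus vulpecula), a marsupial, 3 with black and 3 with grey fur. Each library started from 250 ng of RNA, was enriched for poly(A) tails and kept strand information, and was assembled into transcripts by itself. Coat colour is the only difference between the groups that the sample labels give, and each library is 1 possum of its colour. A punch is a whole tissue, so in these bulk samples fewer cells of a type and less RNA per cell cannot be told apart.

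Aligned bases came to 7.58, 8.51 and 6.47 gigabases in black replicates 1 to 3 and to 4.17, 8.37 and 10.2 gigabases in grey replicates 1 to 3. Skin markers were present in all 6 libraries: the 3 measured keratinocyte genes (TP63, DSG3 and PKP1) summed to 504 to 540 TPM in black and to 334 to 660 TPM in grey skin. Some libraries stood apart. Black replicate 1 held 4423 TPM of skeletal muscle genes, against 8.38 to 15.7 TPM in the other libraries. Grey replicate 3, the deepest library, held 7795 TPM of S100A8, a calcium-binding protein of neutrophils and stressed keratinocytes, against 110 to 804 TPM elsewhere, and had the lowest level of all 7 measured fibroblast genes. The median ratio of coverage near the 5′ end to that near the 3′ end, a sign of RNA integrity, lay between 0.723 and 0.811 in all libraries.

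The genes fell into an abundant and a scarce set. CD74 and the C1q chains made up most of the signal, and MPEG1, CSF1R, CD163, CTSS and CD68 each had 63.1 TPM or less in every library. Summed over the 9 genes, the level was 842, 602 and 1614 TPM in black replicates 1, 2 and 3, against 791, 573 and 472 TPM in grey replicates 1, 2 and 3. Black replicate 3 therefore carried the largest sum and grey replicate 3 the smallest, while the other libraries of both colours overlapped. As a share of all TPM, the sum was 0.0843%, 0.0602% and 0.162% in black skin and 0.0791%, 0.0574% and 0.0473% in grey skin.

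**Figure D1:**
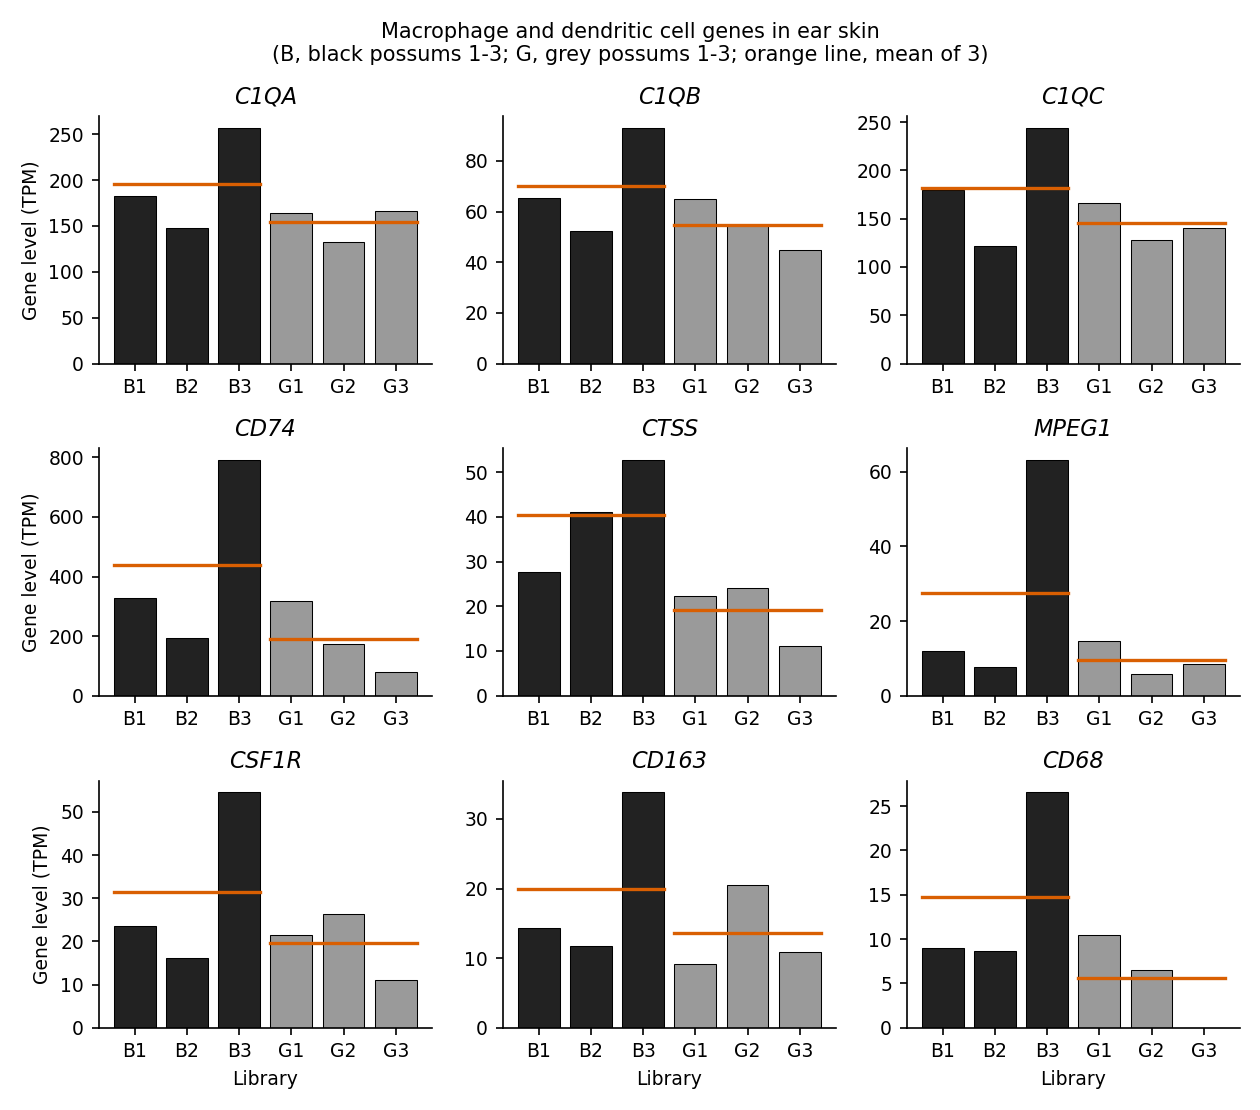
Level of each of the 9 measured genes (TPM, linear axis from 0, a separate scale per gene) in the 3 black (B1 to B3) and 3 grey (G1 to G3) possums; bars are libraries and orange lines are means of 3. All 9 genes were highest in black replicate 3, CTSS is the only gene whose colours do not overlap, and CD68 is listed at 0 in grey replicate 3.

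C1q opens the classical complement pathway by binding antibody or other ligands, and each molecule is built from equal numbers of A, B and C chains. The 3 chain genes lie side by side within 25.75 kb of chromosome 2 of the possum assembly mTriVul1.pri, in the order C1QA (56329938 to 56333798), C1QC (56339539 to 56343888) and C1QB (56347284 to 56355685), all on the forward strand. C1QA had 182, 148 and 257 TPM in black replicates 1 to 3 and 164, 132 and 166 TPM in grey replicates 1 to 3. C1QC had 180, 122 and 244 TPM in black skin and 166, 128 and 141 TPM in grey skin. C1QB had 65.3, 52.4 and 92.9 TPM in black skin and 64.9, 54.5 and 44.8 TPM in grey skin. The levels of all 3 chains overlapped between colours, and black replicate 3 was 1.35 to 1.42 times the next highest library.

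On the log2(TPM + 1) scale, the black minus grey differences were 0.31 for C1QA, 0.33 for C1QB and 0.27 for C1QC (SE 0.23, 0.25 and 0.27 from the limma fit across all genes, n = 3 each). Means were 196 ± 55.7 TPM in black and 154 ± 18.9 TPM in grey skin for C1QA (SD). They were 70.2 ± 20.7 and 54.7 ± 10.1 TPM for C1QB and 182 ± 61.0 and 145 ± 19.4 TPM for C1QC, black skin first in each pair. For these chains the difference was close in size to its SE.

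The proportion of the chains was compared within each library. Taken over the exon bases that every library covered, C1QA was 1.01, 1.23 and 1.03 times C1QC in black skin and 0.998, 1.02 and 1.18 times C1QC in grey skin. C1QB was 0.348, 0.432 and 0.368 times C1QC in black skin and 0.373, 0.415 and 0.358 times C1QC in grey skin. The A and C chains were therefore near parity and the B chain stood below the others in all 6 libraries, and both ratios overlapped between colours. The bases compared numbered 1804 for C1QA, 2227 for C1QB and 645 for C1QC, and the part of these unequal lengths was not tested. C1QC was assembled only as a form of 2 exons and 645 nt in black replicate 2 and grey replicate 3. These were the libraries where C1QA was 1.23 and 1.18 times C1QC. The other libraries also had a form of 3 exons, and the part of assembly in the ratios was not tested. C1QA over C1QB varied more, at 2.91, 2.85 and 2.80 in black skin and 2.68, 2.45 and 3.29 in grey skin. The depth behind these ratios was a mean coverage of 140 to 889 reads per base.

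CD74, the invariant chain, fills the groove of new class II molecules and guides them to the endosome. It is encoded on the reverse strand of chromosome 3 (59488461 to 59499805), 634.7 kb from CSF1R. CD74 had 327, 195 and 790 TPM in black replicates 1 to 3 and 317, 175 and 79.2 TPM in grey replicates 1 to 3. It had the largest level of the 9 genes in every library but grey replicate 3, where C1QA and C1QC were above it. Replicates 1 and 2 of the colours overlapped, and the replicates numbered 3 set the extremes. The means were 437 ± 313 TPM in black and 190 ± 120 TPM in grey skin (SD, n = 3 each), a log2 difference of 1.17 (SE 0.65).

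CD74 and the C1q chains did not keep a fixed proportion. CD74 was 1.80, 1.32 and 3.08 times C1QA in black skin and 1.94, 1.32 and 0.478 times C1QA in grey skin. The C1q chains took 50.8%, 53.5% and 36.8% of the sum of the 9 genes in black replicates 1 to 3, against 50.0%, 55.0% and 74.4% in grey replicates 1 to 3. Replicates 1 and 2 of both colours were thus alike in make-up, whereas in black replicate 3 the balance lay towards CD74 and in grey replicate 3 towards C1q.

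CD74 was assembled in alternative forms that differ by an internal exon of 192 nt (59489648 to 59489839), a length of 64 codons. The form without it had 8 exons and the form with it 9. In humans, CD74 forms with and without an added exon encode a thyroglobulin-type domain or lack it, and whether the possum exon corresponds to that exon was not tested. Forms with the exon had 178, 92.9 and 325 TPM in black replicates 1 to 3 and 166, 65.5 and 53.3 TPM in grey replicates 1 to 3. Forms without it had 149, 102 and 465 TPM in black skin and 151, 109 and 25.9 TPM in grey skin. Both forms were therefore highest in black replicate 3 and lowest in grey replicate 3.

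The share of CD74 with the exon is a measure that the choice of the gene did not use. It was 54.5%, 47.7% and 41.2% in black replicates 1 to 3 and 52.3%, 37.5% and 67.3% in grey replicates 1 to 3. The shares overlapped between colours, and the lowest CD74 level, in grey replicate 3, came with the highest share. The means were 47.8% ± 6.67 in black and 52.4% ± 14.9 in grey skin (SD, n = 3 each). The difference of -4.58 percentage points was within the spread between possums (exact 2-sided permutation test, p = 0.7, n = 3 each, where 0.1 is the smallest p this design allows), and without grey replicate 3 it turned to 2.88. Measured instead as the coverage of the exon over that of its neighbours, the share was 51.2%, 45.0% and 40.4% in black skin and 51.6%, 40.9% and 58.0% in grey skin (exact 2-sided permutation test, p = 0.4, n = 3 each). A further exon of 51 nt (59489471 to 59489521) was present beside it in low forms of 10 or 11 exons, which took 0% to 2.86% of CD74.

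**Figure D2:**
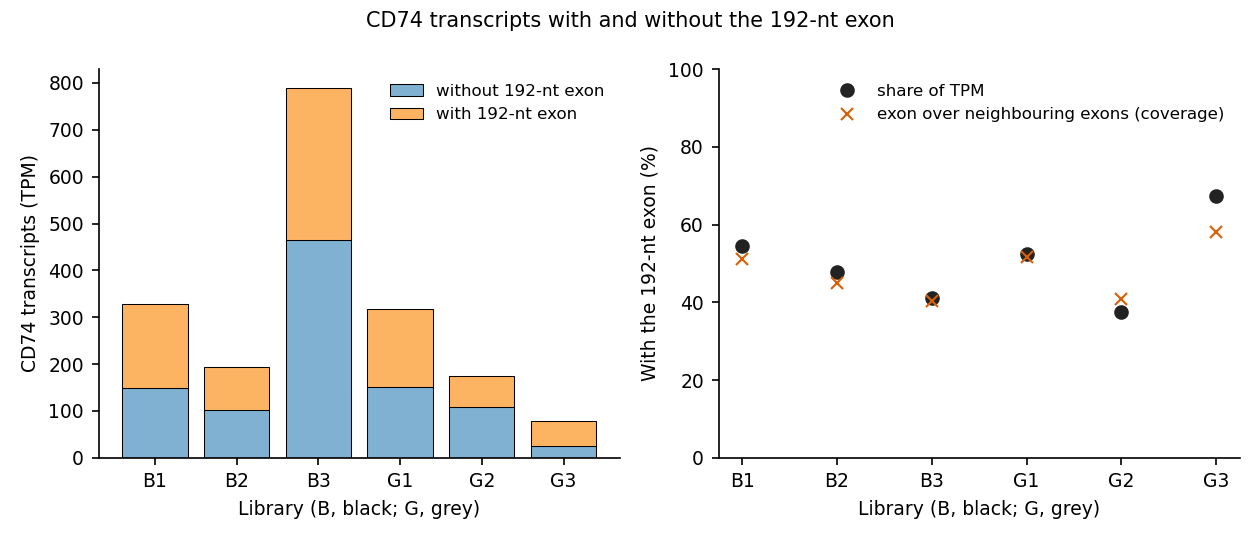
Left, TPM of CD74 transcripts with (orange) and without (blue) the 192-nt exon in each library, stacked to the CD74 total; right, the share with the exon as a percent of TPM (circles) and as the coverage of the exon over that of its neighbours (crosses). The share runs from 37.5% to 67.3% of TPM and overlaps between the 3 black and 3 grey libraries, although the total differs by up to 9.98-fold.

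CTSS encodes cathepsin S, the endosomal protease that trims CD74 off class II molecules. It lies on chromosome 7 (45590105 to 45610704, forward strand). CTSS had 27.8, 41.0 and 52.7 TPM in black replicates 1 to 3 and 22.4, 24.1 and 11.2 TPM in grey replicates 1 to 3. Every black library was above every grey library, the only gene of the 9 for which this held. Over all 15829 genes tested, 4.11% were higher in all black than in all grey libraries. The means were 40.5 ± 12.5 and 19.3 ± 7.02 TPM in black and grey skin (SD, n = 3 each), and the log2 difference was 1.06 (SE 0.35). The margin between the lowest black and the highest grey library was narrow, 27.8 against 24.1 TPM.

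MPEG1 encodes perforin-2, which punches pores in engulfed microbes. It lies on chromosome 6 (266282212 to 266284840, forward strand). MPEG1 had 12.0, 7.60 and 63.1 TPM in black replicates 1 to 3 and 14.6, 5.84 and 8.41 TPM in grey replicates 1 to 3. Black replicate 3 was 4.31 times the next highest library, which was grey, and the other black libraries lay within the grey range. The log2 difference was 0.94 (SE 0.75). Without black replicate 3 it was 0.08.

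MPEG1 was assembled as a form of 1 exon and 1971 nt in all 6 libraries, and also as a form of 2 exons in black replicates 2 and 3. The form of 1 exon had 12.0, 3.03 and 31.8 TPM in black replicates 1 to 3 and the same values as the gene total in the grey libraries. The form of 2 exons had 4.57 and 31.3 TPM in black replicates 2 and 3. Over the 1971 bases that all libraries covered, coverage per aligned gigabase was 6.01, 4.07 and 32.75 in black replicates 1 to 3. It was 7.56, 2.87 and 4.40 in grey replicates 1 to 3, so black replicate 3 stood apart on a fixed length too.

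CSF1R is the receptor for CSF1 and IL34, on which macrophages depend for survival. It lies on chromosome 3 (58806653 to 58853791, reverse strand). CSF1R had 23.7, 16.1 and 54.5 TPM in black replicates 1 to 3 and 21.6, 26.4 and 11.0 TPM in grey replicates 1 to 3. The second highest library was grey, and the lowest black library lay below 2 of the 3 grey libraries. The log2 difference was 0.55 (SE 0.50), and 0.07 without black replicate 3.

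CD163 takes up haemoglobin bound to haptoglobin and is a marker of tissue-resident macrophages. It lies near the end of chromosome 8 (128652 to 165510, reverse strand). CD163 had 14.3, 11.8 and 33.8 TPM in black replicates 1 to 3 and 9.23, 20.6 and 10.9 TPM in grey replicates 1 to 3. Here too a grey library, replicate 2, was second highest. The log2 difference was 0.46 (SE 0.45), and 0.02 without black replicate 3. Forms of 17 exons were assembled in all 6 libraries, and a form of 14 exons in black replicates 1 and 3 and grey replicate 2, where it had 4.19, 10.8 and 6.92 TPM.

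CD68, a glycoprotein of late endosomes, lies on chromosome 7 (260869318 to 260871556, reverse strand). CD68 had 9.03, 8.66 and 26.6 TPM in black replicates 1 to 3 and 10.4 and 6.55 TPM in grey replicates 1 and 2, and is listed at 0 in grey replicate 3. No transcript on either strand covered its span there, although its neighbours EIF4A1 and MPDU1 had 664 and 61.4 TPM in that library. At the lowest level found elsewhere, 3.23 reads of coverage per aligned gigabase in grey replicate 2, the gene would have had a coverage of 33.0 in grey replicate 3. An exact 0 can be a failed assembly, so no fold is given against it. The log2 difference was 1.65 (SE 0.93) with this 0 and 0.58 without grey replicate 3.

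All 9 genes were highest in black replicate 3, where 17.1% of all genes tested had their highest level. For CD74, MPEG1, CSF1R and CD68 that library was at least 2-fold above every other, a distance found for 1.15% of genes. Grey replicate 3 was lowest for 5 of the 9 genes, CD68 at its listed 0 included, and for 23.2% of all genes tested. Genes of this kind were chosen for being higher in black skin in these libraries, so these counts beside all genes are a description only. The extremes lay with these possums to unequal degrees: the ratio of the highest to the second highest library ran from 1.28 for CTSS to 4.31 for MPEG1.

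The black minus grey differences of all 9 genes were positive, with a median of 0.55 on the log2(TPM + 1) scale, against 0.04 over all genes tested, of which 56.9% were positive. The median of the 9 was 0.10 without black replicate 3 and 0.37 without grey replicate 3. The limma fit (Benjamini-Hochberg adjusted p under 0.05) called 2 genes higher in black skin, 0.0126% of those tested, and 1 lower, 0.00632%. None of the 3 was among the 9 genes, whose direction chose them.

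**Figure D3:**
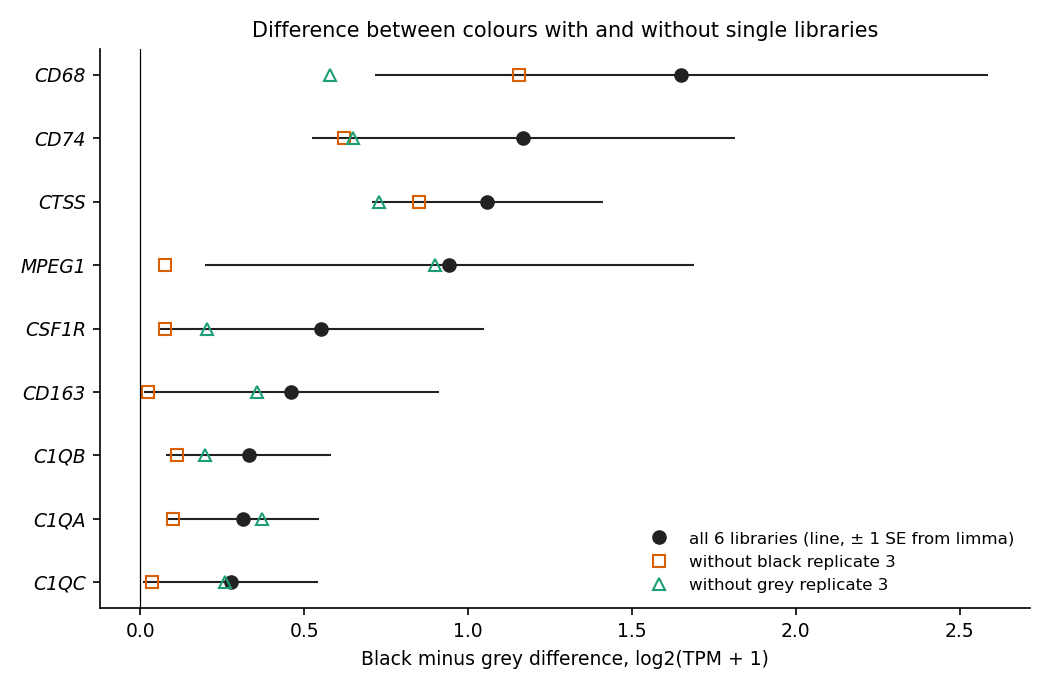
Black minus grey difference of each gene in log2(TPM + 1) from all 6 libraries (filled circles, with lines of 1 SE from limma), without black replicate 3 (open squares) and without grey replicate 3 (open triangles). Without black replicate 3, C1QA, C1QB, C1QC, MPEG1, CSF1R and CD163 lie between 0.02 and 0.11. CTSS, CD74 and CD68 lie between 0.62 and 1.16. They were each lowest in grey replicate 3, as were C1QB and CSF1R.

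Without black replicate 3, CTSS, CD74 and CD68 had log2 differences of 0.85, 0.62 and 1.16, and the other 6 genes were at 0.02 to 0.11. CTSS, CD74 and CD68 were each lowest in grey replicate 3, as were C1QB and CSF1R. The value of CD68 rests on its 0 there. CD74 had 327.5 and 194.6 TPM in black replicates 1 and 2, near the 317.2 and 174.6 TPM of grey replicates 1 and 2. Its level in grey replicate 3 was 79.22 TPM. Without grey replicate 3 the order was another: MPEG1 had the largest difference, 0.90, followed by CTSS, CD74 and CD68 with 0.73, 0.65 and 0.58.

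As a description of how the genes varied together, Pearson's r was computed for the 36 pairs over the 6 libraries, which share black replicate 3 as the highest point. Its median was 0.77, with a range of 0.44 (C1QC and CTSS) to 0.98 (CD74 and C1QB). Over the 5 libraries without black replicate 3 the median was 0.41, the range -0.68 to 0.97, and 10 pairs were below 0. Among these 5 libraries r was 0.97 for CD74 and C1QB and 0.92 for CD74 and CD68, the second of which includes the listed 0 of CD68 in grey replicate 3. For CD163 and MPEG1 it was -0.68.

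The 8 genes whose levels followed the mean of the 9 most closely over the 6 libraries, of 9536 genes searched, were CRIP1, TM6SF1, TSPAN18, EMP3, CMTM3, LAPTM5, SEMA4C and HMGN1, with r between 0.96 and 1.00. CRIP1, a small zinc-binding LIM protein, had 353, 282 and 667 TPM in black replicates 1 to 3 and 321, 296 and 209 TPM in grey replicates 1 to 3. LAPTM5, a lysosomal membrane protein of blood-derived cells, had 19.5, 18.1 and 57.9 TPM in black skin and 21.7, 16.3 and 13.95 TPM in grey skin. Both overlapped between colours. That they were highest in black replicate 3 follows from the way they were found.

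Other genes of these cells and pathways, and markers of other cell types and processes, were taken from 21 lists. They held 280 genes, of which 202 were annotated and 179 tested. None of the 179 was called between colours by limma (adjusted p under 0.05), and 4 had an unadjusted p under 0.05, among them PLCG2, with a log2 difference of 0.82, and CD247 and SLC48A1, with -1.61 and -0.76. Over all genes tested, 374 had such a p.

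Pan-leukocyte and phagocyte genes were mostly highest in black replicate 3. Their sum was 154, 154 and 387 TPM in black replicates 1 to 3 and 181, 139 and 155 TPM in grey replicates 1 to 3. Of the 16 tested, 12 were highest in black replicate 3, against 17.1% of all genes. In grey replicate 3, 4 of the 16 were lowest, against 23.2% of all genes. The order of the other libraries differed from that of the 9 genes, with the lowest sum in grey replicate 2. FCER1G, the signalling chain of Fc receptors and a relative of TYROBP in function, had 31.9, 30.0 and 84.2 TPM in black skin and 34.7, 28.8 and 34.8 TPM in grey skin. LCP1, an actin-bundling protein of leukocytes, had 19.4, 17.2 and 45.1 TPM in black skin and 19.1, 15.5 and 18.0 TPM in grey skin. SPI1 (PU.1), the transcription factor of the myeloid lineage, had 8.82, 6.79 and 23.4 TPM in black skin and 9.998, 4.91 and 6.25 TPM in grey skin. Outside black replicate 3 the colours overlapped for all 3, and the list's median log2 difference was 0.26, or -0.03 without that library.

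Macrophage surface and scavenger receptor genes were also mostly highest in black replicate 3. Of 17 annotated genes, 14 had a transcript, while MSR1, VSIG4 and CX3CR1 are listed at 0 in every library. Of 13 tested, 9 were highest in black replicate 3, and the median log2 difference was 0.16, or -0.21 without that library. MRC1, the mannose receptor of dermal macrophages, had 20.6, 18.6 and 58.3 TPM in black replicates 1 to 3 and 23.2, 32.8 and 21.1 TPM in grey replicates 1 to 3. CD14, the lipopolysaccharide co-receptor, had 11.9, 4.80 and 59.2 TPM in black skin and 19.5, 14.1 and 22.9 TPM in grey skin, so that black replicates 1 and 2 lay below all grey libraries. Of the 3 most abundant genes of the list, F13A1, a transglutaminase of macrophages, had 57.0, 52.1 and 94.2 TPM in black skin and 44.4, 54.1 and 25.9 TPM in grey skin. GPNMB had 110 to 202 TPM in black and 95.5 to 198 TPM in grey skin, and LGALS3, also made by keratinocytes, was highest in grey replicate 3, at 2251 TPM.

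Genes of dendritic and Langerhans cells were scarce. Their sum was 66.4, 68.3 and 104 TPM in black replicates 1 to 3 and 81.0, 74.3 and 73.2 TPM in grey replicates 1 to 3, and 6 of the 9 tested were highest in black replicate 3. CD207 (langerin), which forms the granules of Langerhans cells, had 6.19, 4.55 and 9.25 TPM in black skin and 8.15, 5.57 and 2.53 TPM in grey skin. FLT3, the growth factor receptor of dendritic cells, had 4.40, 2.67 and 6.78 TPM in black skin and 5.33, 2.95 and 2.67 TPM in grey skin. XCR1, a chemokine receptor of cross-presenting dendritic cells, is listed at 0 throughout. The levels of both CD207 and FLT3 overlapped between colours. The 3 most abundant genes of the list, SIRPA, CADM1 and FSCN1, had 7.68 to 37.1 TPM, and only SIRPA was highest in black replicate 3.

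Other genes of the pathways of the 10 genes were highest in black replicate 3 in varying numbers, to be read against 17.1% of all genes. This held for 4 of 5 tested genes of the list drawn up for TYROBP, which holds signalling proteins as well as partners. Among the 4 were FCER1G and SYK, which are also on the leukocyte list. It also held for 4 of 10 CSF1R ligands and lineage factors. For CSF1R, its ligand CSF1 had 23.2, 17.7 and 22.7 TPM in black replicates 1 to 3 and 17.8, 19.7 and 25.9 TPM in grey replicates 1 to 3. IL34, the ligand made by keratinocytes, had 8.57, 4.82 and 7.83 TPM in black skin and 10.3, 9.94 and 5.63 TPM in grey skin. Neither ligand was highest in black replicate 3.

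For C1q, the proteases that complete the C1 complex, C1R and C1S, were not highest in black replicate 3 either. C1R had 75.6, 84.3 and 68.2 TPM in black skin and 78.8, 69.7 and 35.0 TPM in grey skin, and C1S had 64.2, 78.2 and 59.3 TPM in black skin and 80.1, 56.1 and 50.1 TPM in grey skin. Of the 10 genes of the C1 and classical pathway list, 3 were highest in black replicate 3. The median log2 difference of the list was 0.12.

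For CD74 and CTSS, the other measured genes of class II presentation had a median log2 difference of 0.01 over 8 tested, of which 3 were highest in black replicate 3. The class II chain genes themselves are not analysed here. CIITA, the master regulator of class II genes and of CD74, had 3.13, 3.57 and 7.82 TPM in black skin and 9.41, 2.76 and 3.63 TPM in grey skin, with its highest level in grey replicate 1. LGMN, an endosomal protease of antigen processing, had 88.8, 83.7 and 120 TPM in black skin and 111, 86.4 and 92.3 TPM in grey skin. The 20 other lysosomal genes tested had a median log2 difference of 0.06, and 9 were highest in black replicate 3. Among them CTSK, cathepsin K, had 427 TPM there, against 146 to 285 TPM elsewhere, while of the 3 most abundant, CTSB was highest in black replicate 3, at 660 TPM, and CST3 and LAMP1 in grey replicate 3. The 11 genes of haem and iron handling, listed for CD163, had a median of 0.05, with 2 highest in black replicate 3.

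Of the other marker genes, those of T and NK cells and of proliferation were also mostly highest in black replicate 3. T and NK cell genes summed to 29.5, 39.7 and 59.8 TPM in black replicates 1 to 3 and to 32.0, 46.4 and 36.8 TPM in grey replicates 1 to 3, with 8 of 13 highest in black replicate 3. Proliferation genes summed to 76.6, 63.9 and 143 TPM in black skin and to 97.5, 95.4 and 61.3 TPM in grey skin, with 7 of 8 highest there. B and plasma cell genes came to 6.11 to 8.24 TPM in all libraries, and the defining markers MS4A1, PAX5 and MZB1 are listed at 0. Mast cell genes summed to 161, 97.9 and 129 TPM in black skin and to 130, 157 and 42.5 TPM in grey skin, with 1 of 5 highest in black replicate 3. The part of these cells in the levels of the 9 genes was not tested.

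In grey replicate 3, where 5 of the 9 genes were lowest, fibroblast genes summed to 1006 TPM, against 2426 to 3784 TPM in the other libraries. Endothelial genes summed to 188 TPM there, against 223 to 297 TPM elsewhere. The interferon response list was also low there, with 6 of its 7 genes lowest in that library, against 23.2% of all genes. Its sum was 96.9, 134 and 44.0 TPM in black replicates 1 to 3 and 74.4, 37.9 and 28.0 TPM in grey replicates 1 to 3, and 0 of the 7 genes were highest in black replicate 3. The part of tissue make-up in the low levels of grey replicate 3 was not tested.

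**Figure D4:**
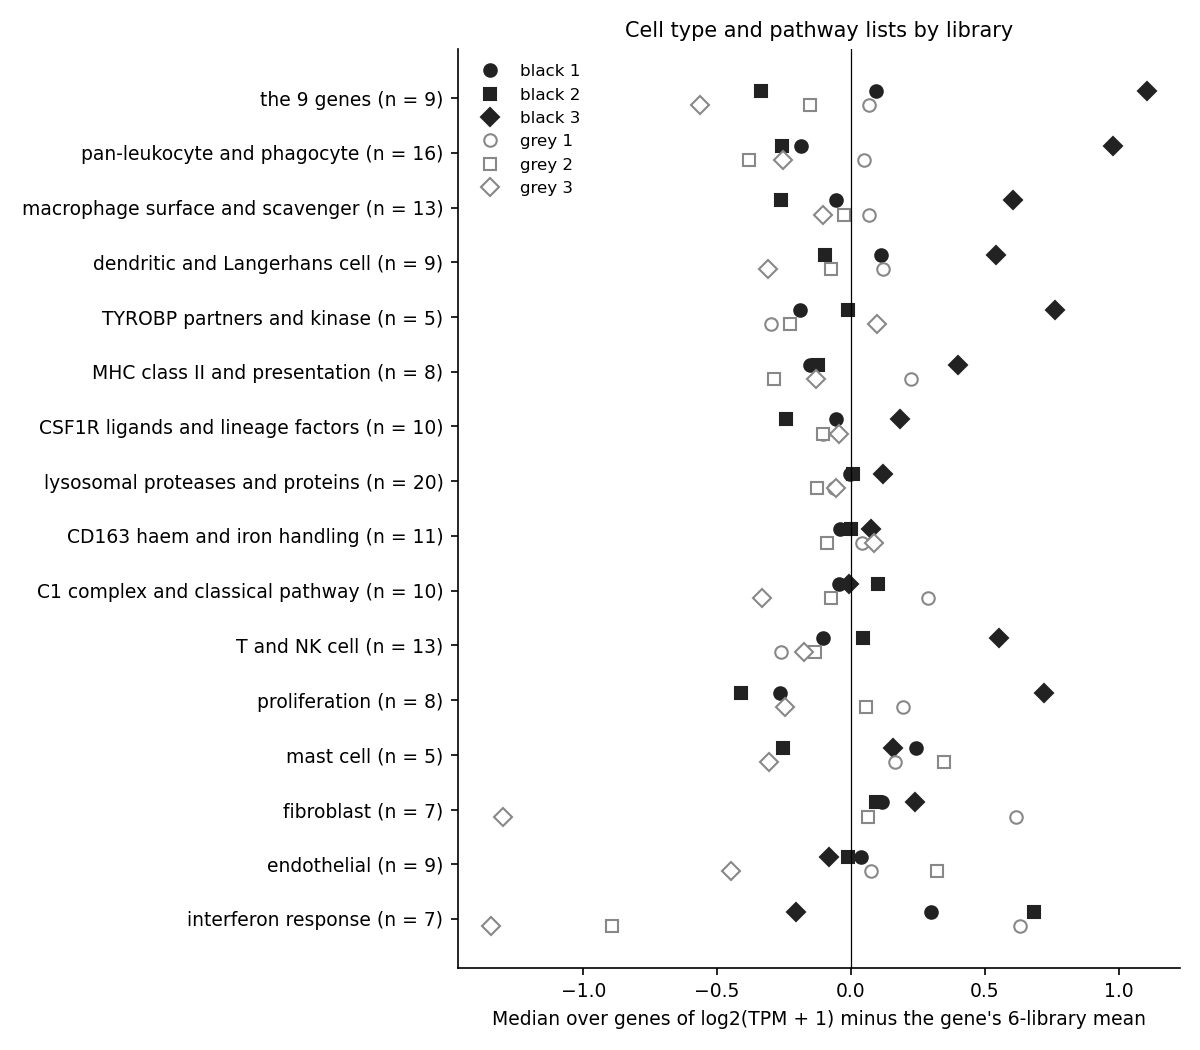
For the 9 genes and part of the other lists, median over tested genes of log2(TPM + 1) minus the gene's 6-library mean (horizontal axis), per library. Filled symbols are black possums, open symbols grey, and n is the number of genes. The melanocyte, inflammatory, neutrophil, keratinocyte, B cell and skeletal muscle lists are not drawn. Of these, only the B cell list (1 gene) was highest in black replicate 3, and the inflammatory list was at -0.31 there and 0.55 in grey replicate 3. Black replicate 3 lies farthest right for the 9 genes (1.10), for the leukocyte, TYROBP partner, macrophage, dendritic cell, T and NK cell and proliferation lists (0.54 to 0.98) and for the class II, CSF1R and lysosomal lists (0.12 to 0.40), and not for the haem, C1, mast cell, fibroblast, endothelial and interferon lists.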

How the data were processed

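Reads were trimmed by the authors (Trim Galore, version 0.6.10), aligned to the possum genome (HISAT2, version 2.2.1), cleared of amplicon reads carrying the same index, and assembled per library (StringTie, version 2.2.0). Their deposited files give coverage, FPKM and TPM per transcript, which are not read counts.

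Transcripts were assigned to RefSeq genes (mTriVul1.pri), whose table gives spans only. Exons and strand were inferred from assembled transcripts matching a span (at least 0.5 of the joint span, or 80% inside). Of 274079 transcripts, 237671 were assigned by same-strand exon overlap and 1298 by name. TPM was summed per gene, 0 where nothing was assembled. This covered 88.2% to 91.2% of TPM. Aligned bases came from coverage over FPKM.

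Black and grey skin (n = 3 each) were compared with limma (version 3.58.1, R version 4.3.3, mean-variance trend) on log2(TPM + 1) for 15829 genes (mean of 1 TPM or more). This scale understates changes of low genes. The fit was also run on simulated libraries with independent normal noise per gene. The outcome of that run is not given here and is no support for the calls. p-values rest on the spread between the possums of a colour.

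The members and lists were chosen with earlier results of these data known. Named genes were all members, up to 3 per list by mean level (others were added after their values were seen), and the 8 genes of highest r with a mean of at least 5 TPM. Promoter motifs and proteins were not analysed here. Alternatives were other pseudocounts, filters, scalings, transcript sets, variance models, a replicate block and leaving out each library. Fixed exon bases, the median without CD68 and the CD74 exon share were added after seeing the data. Near-identical genes can share reads.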

Additional observations from a re-analysis of the deposited data

How the results depend on the processing

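The number of genes called between colours, 3, was 1 with a pseudocount of 0.1, with a filter at 5 TPM and with coverage bases per aligned gigabase, 0 of 732 genes when only names in the files were used (30 had an unadjusted p under 0.05), and 1 to 4 when a library was left out (1 without black replicate 2, grey replicate 1 or grey replicate 2). With the replicate block it was 0, with 374 genes at an unadjusted p under 0.05. The same-numbered libraries share only a number, with correlations of -0.02, 0.02 and -0.05, and the block changed no other call. None of the 21 lists' genes was called under any of these settings. The median black minus grey difference of the genes, 0.55, ranged from 0.10 (without black replicate 3) to 0.92 (without black replicate 2) when a library was left out, and from 0.48 to 0.62 under the other settings, fixed exon bases included. It was 0.07 with names in the files only, which left MPEG1 and C1QC. C1QC had -0.12 with names in the files only, a setting that counts only its 2-exon form. MPEG1 had 2.50 with multi-exon transcripts only, which removes its form of 1 exon. The CD74 exon share differed by -12.0 to 2.88 percentage points when a library was left out. Depth (4.17 to 10.2 gigabases) limits genes near 1 TPM, and the number of possums limits all comparisons by colour.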
